A study of Mus musculus with 264 samples.

Results

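The neurospheres described here were the ethanol-exposed neurospheres whose measured diameters lie on one common measuring step: 64 at 25 mM, 66 at 70 mM and 44 at 100 mM, of 264 neurospheres in the series. They were chosen by the ethanol dose in the name of each column of the cycle table. The 22 neurospheres at 100 mM from run 3 were left out because their diameters lie off that step, and the 68 unexposed neurospheres enter only 1 comparison. A neurosphere is a free-floating ball of cells that grows from dividing neural stem and progenitor cells in medium with growth factors. It holds stem cells together with their more committed daughters, and it gets larger as its cells divide or as cells and small spheres merge. A larger sphere usually holds more cells, and so more RNA in a lysate made from the whole sphere, and its inner cells lie farther from the medium.

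All neurospheres came from neuroepithelial cells of the dorsal telencephalon, the region that forms the cerebral cortex, of fetal C57/Bl6 mice on gestational day 12.5. The cells of entire litters were pooled and grown without attachment in medium with bFGF, EGF, LIF, insulin, transferrin, selenium, heparin and progesterone, and ethanol was added for the exposed groups until collection on day 5. The labels name the doses 25, 70 and 100 mM, whereas the design text gives 75 mM for the middle dose and the treatment protocol 26 mM for the lowest, and the labels were followed. Single neurospheres were imaged, lysed and read by quantitative PCR on Biomark HD microfluidic arrays, with 75 assays under coded names that the files do not pair with genes.

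The labels sort neurospheres into small (S), medium (M) and large (L). The S group held 55 neurospheres of up to 34.2 µm, the M group 93 of 34.6 to 51.5 µm and the L group 26 of 52.2 µm or more, with 98.2 µm the largest. At 25 mM there were 7 L, 36 M and 21 S neurospheres, at 70 mM 9 L, 37 M and 20 S, and at 100 mM 10 L, 20 M and 14 S. The cultures formed 2 sets, Set-A with 98 of the neurospheres and Set-B with 76, and were read in 3 runs. Both sets were in run 1, only Set-A in run 2 and only Set-B in run 3, which gave 11 combinations of run, set and dose with 11 to 22 neurospheres each. At 100 mM only 11 of the 44 neurospheres came from Set-B, so dose and set are partly tied together. Each dose rests on 2 culture sets, so the p-values measure the spread between single neurospheres and not between independent cultures.

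The value of an assay is its cycle number, the cycle at which product crosses the detection threshold. It is an inverted log2 scale, on which 1 cycle earlier stands for about 1 doubling more template where primers work at full efficiency. The mean cycle number of a neurosphere was taken over the 48 assays with a value in at least 95% of these neurospheres, and a lower mean stands for more starting template. The cycle numbers of a sphere do not separate more cells from more RNA per cell. Across all of them the mean cycle number ran from 7.47 to 19.8, and the means of the 11 combinations ran from 10.2 to 15.3, a spread that the fits and tests below remove by comparing spheres within a combination. Ranges, medians and means by size group or dose are given over combinations and do not remove it. Of the 75 assays, 23 had a value in every neurosphere, and a neurosphere had values for 47 to 74 assays, with a median of 69.

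Larger ethanol-exposed neurospheres gave product slightly earlier on average, by less than the spread between neurospheres. In the L group the lowest mean cycle number was 7.92, the median 12.6 and the highest 18.1. In the M group these were 7.47, 13.2 and 19.8. In the S group they were 8.23, 13.4 and 19.7. The 3 groups overlapped over nearly their whole ranges, and the means were 12.4 ± 2.74 in L (SD, n = 26), 13.0 ± 2.64 in M (SD, n = 93) and 13.6 ± 2.56 in S (SD, n = 55).

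Within combinations of run, set and dose, L neurospheres were 0.52 cycles earlier than S neurospheres, an L minus S difference of -0.52 (SE 0.58, 95% interval -1.69 to 0.65). The two-sided permutation test with 100000 resamples of size labels within combinations gave p = 0.388. After Benjamini-Hochberg adjustment over the 8 main tests of single values it was 0.447. Of these 8, the test of slopes among all 11 combinations was added after the data were seen. Permutation p-values for single doses or sets, or with neurospheres left out, are not adjusted. The L mean lay below the S mean in 7 of 11 combinations. The differences by combination ran from -5.18 cycles in run 1 Set-A at 25 mM, where 1 L neurosphere stood against 1 S neurosphere, to 2.18 cycles in run 1 Set-B at 70 mM.

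The fit on log2 diameter used every neurosphere, M included. The mean cycle number changed by -0.55 cycles for each doubling of diameter (SE 0.37, 95% interval -1.27 to 0.17, permutation p = 0.139, adjusted p = 0.285). On the linear scale this is 1.46-fold more template per doubling of diameter, with an interval from 0.886-fold to 2.42-fold. The volume of a solid sphere doubles 3 times when its diameter doubles once. A slope of -3, which template in proportion to volume would give at full primer efficiency, lies outside the interval. Diameter took up 1.37% of the variance of the mean cycle number within combinations. The slope was negative in 8 of 11 combinations. Within the M group alone it was -0.33 (95% interval -3.28 to 2.61) within the S group alone 0.09 (95% interval -2.06 to 2.24) and within the L group alone -6.49 (SE 3.10, 95% interval -13.1 to 0.17). The L interval holds both 0 and -3, and each within-group interval is wider than that of the whole fit.

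**Figure D1:**
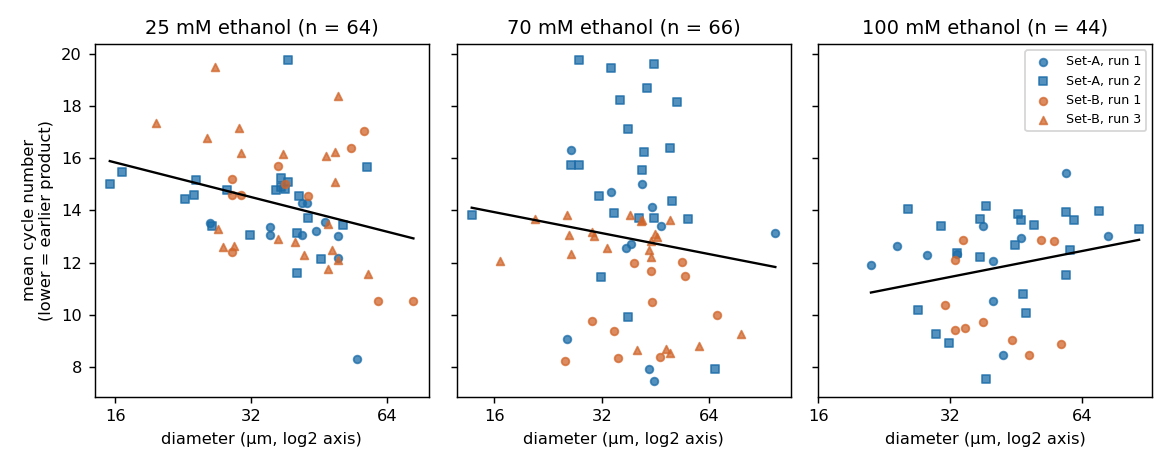
Mean cycle number (y axis, cycles, lower means earlier product) against neurosphere diameter (x axis, µm, log2 axis) at 25, 70 and 100 mM ethanol, 1 point per neurosphere, with colour for the culture set and shape for the run. The black line has the slope fitted within combinations of run and set and passes through the panel's mean: -1.33, -0.80 and 0.99 cycles per doubling of diameter, and the points scatter widely around it at each dose.

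Taken over all doses, the spread was itself wider among large spheres. After the combination means were removed, but not the slope, the SD of the mean cycle number was 2.74 cycles in L, 2.03 in M and 1.91 in S. By dose, with the combination means not removed, the SD in L, M and S was 3.45, 1.78 and 1.80 at 25 mM. It was 3.15, 3.11 and 2.95 at 70 mM and 1.75, 2.13 and 1.64 at 100 mM, where M was widest. These values are given as a description without a test. The L neurosphere with the lowest mean cycle number, 7.92, and the one with the highest, 18.1, came from the same combination, run 2 Set-A at 70 mM, with diameters of 66.4 and 52.2 µm.

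By dose, the slopes ran toward earlier product in larger spheres at 25 and 70 mM and toward later product at 100 mM. At 25 mM the 7 L neurospheres had a lowest mean cycle number of 8.32, a median of 11.6 and a highest of 17.1, and the 21 S neurospheres had 12.4, 14.6 and 19.5. Of these L neurospheres 4 lay below every S neurosphere, between 8.32 and 11.6, and the others lay among the S values. The slope at 25 mM was -1.33 cycles per doubling of diameter (95% interval -2.45 to -0.20), with permutation p = 0.0214 for this dose alone, a test added after the data were seen. Without the 73.3 µm L neurosphere of run 1 Set-B it was -1.11, with permutation p = 0.0566. Without each of the other L neurospheres in turn the slope lay between -1.49 and -1.17, with permutation p from 0.0105 to 0.0412.

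At 70 mM the 9 L neurospheres had a lowest, median and highest mean cycle number of 7.92, 11.5 and 18.1, and the 20 S neurospheres 8.23, 13.4 and 19.7. The groups overlapped almost completely, and the slope was -0.80 (95% interval -2.10 to 0.50). At 100 mM the 10 L neurospheres had a lowest, median and highest of 8.90, 13.1 and 15.4, and the 14 S neurospheres 8.92, 12.2 and 14.1. Here L lay slightly later than S with wide overlap, and the slope was 0.99 (95% interval -0.27 to 2.26). The L minus S difference within combinations, taken at each dose alone, was -1.48 cycles at 25 mM (permutation p = 0.233), -1.63 at 70 mM (permutation p = 0.163) and 1.31 at 100 mM (permutation p = 0.0687).

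The difference of the slopes among the 3 doses gave F = 3.06 with permutation p = 0.0445, and 0.285 after adjustment over the 8 tests. Without the 55.0 µm L neurosphere of run 1 Set-A at 25 mM, F was 2.82 and permutation p = 0.0575. The slopes at 100 mM in the 3 combinations with that dose were 0.80, -0.04 and 1.36. Those at 25 mM in 4 combinations were -2.60, -1.39, -0.44 and -2.15, so every one of the 4 was negative.

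By culture set, the slope was -0.05 cycles per doubling of diameter in Set-A (95% interval -1.05 to 0.96) and -1.27 in Set-B (95% interval -2.30 to -0.23). The Set-B slope had permutation p = 0.0175 on its own, and stayed between -1.39 and -1.09 when each L neurosphere of Set-B was left out in turn, with permutation p from 0.00889 to 0.0437. The difference of the slopes between the sets was -1.22 (SE 0.74, permutation p = 0.0957, adjusted p = 0.285). The slope in run 3, which held only Set-B, was -1.93 (95% interval -3.25 to -0.61), against -0.10 in run 1 and -0.01 in run 2. Within run 1 the Set-B slopes were -1.39 at 25 mM, 1.78 at 70 mM and -0.04 at 100 mM. The Set-A slopes of run 1 were -2.60, -0.24 and 0.80 at the same doses. Without run 3 the difference of the slopes between the sets was -0.02 (SE 1.08, permutation p = 0.984). Only run 1 held both sets, so for the slopes of runs 2 and 3 set and run cannot be told apart. Among all 11 combinations the slopes gave F = 1.19 for their difference (permutation p = 0.268, a test added after the data were seen).

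**Figure D2:**
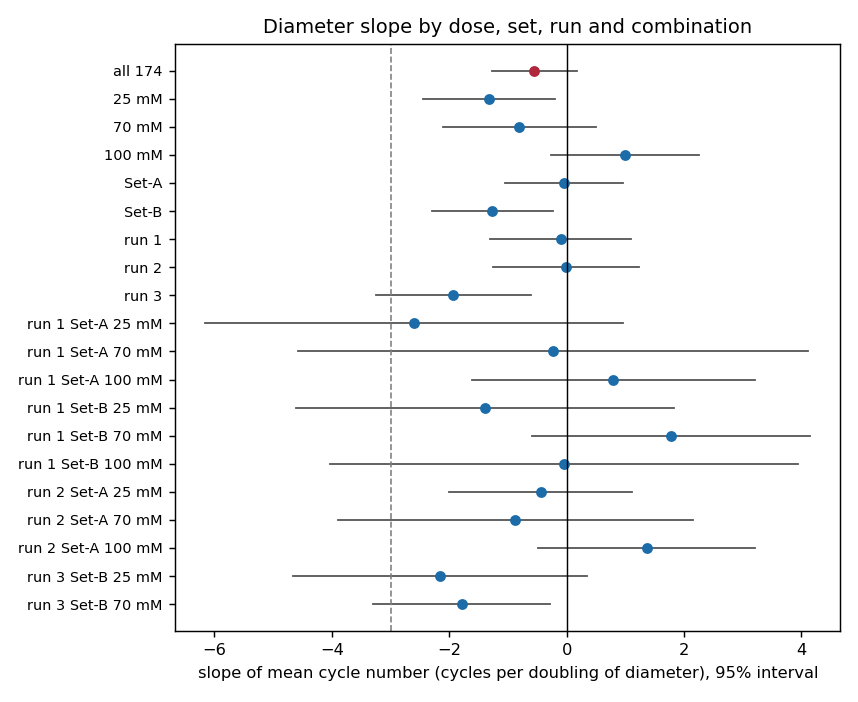
Slope of the mean cycle number on log2 diameter (x axis, cycles per doubling of diameter) with its 95% interval, for all neurospheres together, each dose, each culture set, each run and each of the 11 combinations (y axis). The solid line marks 0 and the dashed line -3, the slope of template in proportion to sphere volume; the interval for all of them holds 0 and not -3, while those for 25 mM, Set-B, run 3 and run 3 Set-B at 70 mM lie below 0.

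In the 68 unexposed neurospheres, at 0 mM, the slope was -0.07 cycles per doubling of diameter (SE 0.47). The ethanol slope minus the unexposed slope was -0.48 (SE 0.59, permutation p = 0.432, adjusted p = 0.447), so a difference between exposed and unexposed spheres was not detectable at this spread.

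The number of assays with a value differed between large and small neurospheres by less than the spread between spheres. The L group had a lowest of 54, a median of 70.5 and a highest of 74 detected assays, and the S group 50, 68 and 74. Within combinations L exceeded S by 0.92 assays (SE 1.16, 95% interval -1.40 to 3.24, permutation p = 0.447). L was higher in 8 of 11 combinations. Assay by assay, detection was compared in the 27 assays with a value in 5% to 95% of the neurospheres. The exact conditional Mantel-Haenszel test called 0 of 27 (0%) after Benjamini-Hochberg adjustment, with 1 at an unadjusted p under 0.05.

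The composition of the measured mRNA was then compared through relative levels. The relative level of an assay is its cycle number, with the sign turned, set against the mean cycle number of the same neurosphere, in log2 units, so a sphere with more RNA in every assay has the same relative levels. No assay differed between L and S past the threshold over all doses. With limma, 0 of 72 assays (0%) passed a Benjamini-Hochberg adjusted p of 0.05, and 9 had an unadjusted p under 0.05, of which 6 were higher and 3 lower in L. The smallest adjusted p was 0.0621. The 72 differences ran from -0.74 to 1.31 log2 units with a median of 0.05, and 71 of them were smaller than 1 log2 unit. Their median SE was 0.31, and the 95% interval lay wholly within 1 log2 unit of 0 for 39 of the 72, so for the other assays a difference of that size lay within the interval.

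The fit on log2 diameter gave the same count. With limma, 0 of 72 assays (0%) had a slope past the threshold, and 8 had an unadjusted p under 0.05. The slopes ran from -0.65 to 1.01 log2 units per doubling of diameter, with 67 of 72 smaller than 0.5. Nor did the slopes differ past the threshold among doses, with 0 of 72 (0%) and 9 at an unadjusted p under 0.05, or between culture sets, with 0 of 72 (0%) and 6 at an unadjusted p under 0.05.

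Without the centring on each neurosphere's mean, nearly every assay leaned the same way. The cycle numbers, sign turned, were higher in L than in S for 67 of 72 assays, with a median of 0.64 log2 units, and their slopes on log2 diameter were positive for 70 of 72, with a median of 0.58. In limma 0 of 72 (0%) passed for L against S and 1 of 72 (1.39%) for the slope, which was positive. All assays of a neurosphere share its amount of template, so this count repeats the mean cycle number and adds no independent evidence. By abundance, the median L minus S difference was 0.59 for the 24 assays with the earliest mean cycle numbers (6.77 to 12.9), 0.72 for the middle 24 (13.1 to 15.6) and 0.64 for the latest 24 (16.0 to 20.3).

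**Figure D3:**
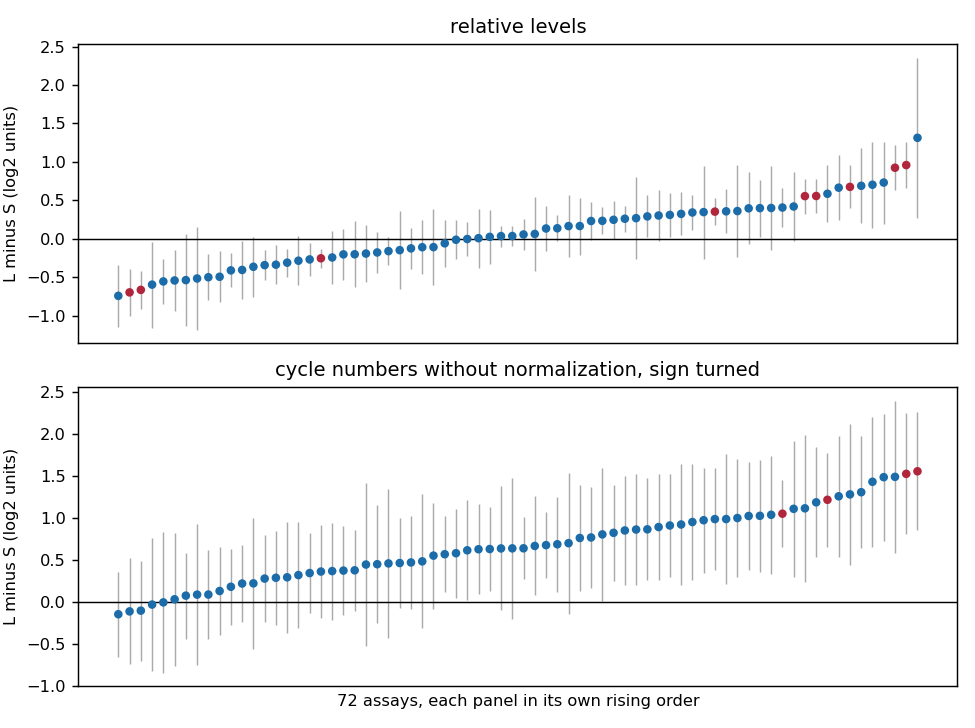
L minus S difference (y axis, log2 units, error bars are 1 SE) of each of the 72 assays, in rising order along the x axis, for relative levels (top) and for cycle numbers without centring, sign turned (bottom). Red marks an unadjusted p under 0.05 in limma; the relative levels lie on both sides of 0 with a median of 0.05, and the values without centring lie above 0 for 67 of 72.

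Of single assays, 4 are shown: the pair with the smallest p among those higher in L, A020 and A025, and the pair with the smallest p among those lower in L, A031 and A073. The rule for naming assays asked for a passed test and named none, so these were chosen after their values were seen. Which mRNA each one measures is not stated in the labels or files.

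Assay A020 had a lowest, median and highest relative level of -5.13, -1.24 and 0.58 in the 26 L neurospheres and of -5.56, -2.14 and 0.01 in the 54 S neurospheres with a value. The medians were about 1 log2 unit apart, and the ranges overlapped almost fully. The L minus S difference within combinations was 0.96 log2 units (SE 0.30, limma adjusted p = 0.0621), and L was higher in 8 of 11 combinations. Split by dose, the difference for A020 came to 1.22 log2 units at 25 mM, 0.63 at 70 mM and 1.15 at 100 mM.

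Assay A025 had a lowest, median and highest relative level of -3.29, 0.47 and 2.83 in L and of -5.87, 0.15 and 1.89 in S. The ranges again overlapped, with the lowest values in S and the highest in L. The L minus S difference was 0.92 log2 units (SE 0.29, limma adjusted p = 0.0621), and L was higher in 10 of 11 combinations. Split by dose it came to 1.63 at 25 mM, 0.88 at 70 mM and 0.32 at 100 mM. Both A020 and A025 passed with centring on the median in place of the mean (2 of 72 assays, 2.78%) and with only the assays detected in at least 80% kept (2 of 59, 3.39%). The 80% filter leaves the values of both assays unchanged and mainly shortens the list for adjustment, so it is no separate check. With it the smallest limma adjusted p was 0.0495. Leaving out each of the 26 L neurospheres in turn gave 0 to 2 assays past the threshold, with 7 to 12 at an unadjusted p under 0.05.

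Assay A031 had a lowest, median and highest relative level of -3.67, -1.23 and 1.20 in L and of -4.63, -0.42 and 1.33 in S, again with wide overlap. The L minus S difference was -0.67 log2 units (SE 0.25, limma adjusted p = 0.184), and L was lower in 10 of 11 combinations. Assay A073 had a lowest, median and highest of -4.62, 0.93 and 3.47 in L and of -2.50, 1.74 and 5.45 in S. Its L minus S difference was -0.70 log2 units (SE 0.31, limma adjusted p = 0.25), and L was lower in 9 of 11 combinations. Without centring the differences of A031 and A073 shrank to -0.10 (SE 0.59) and -0.15 (SE 0.51), so they were lower relative to the other assays of the same sphere, while their own cycle numbers differed between L and S by less than 1 SE.

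**Figure D4:**
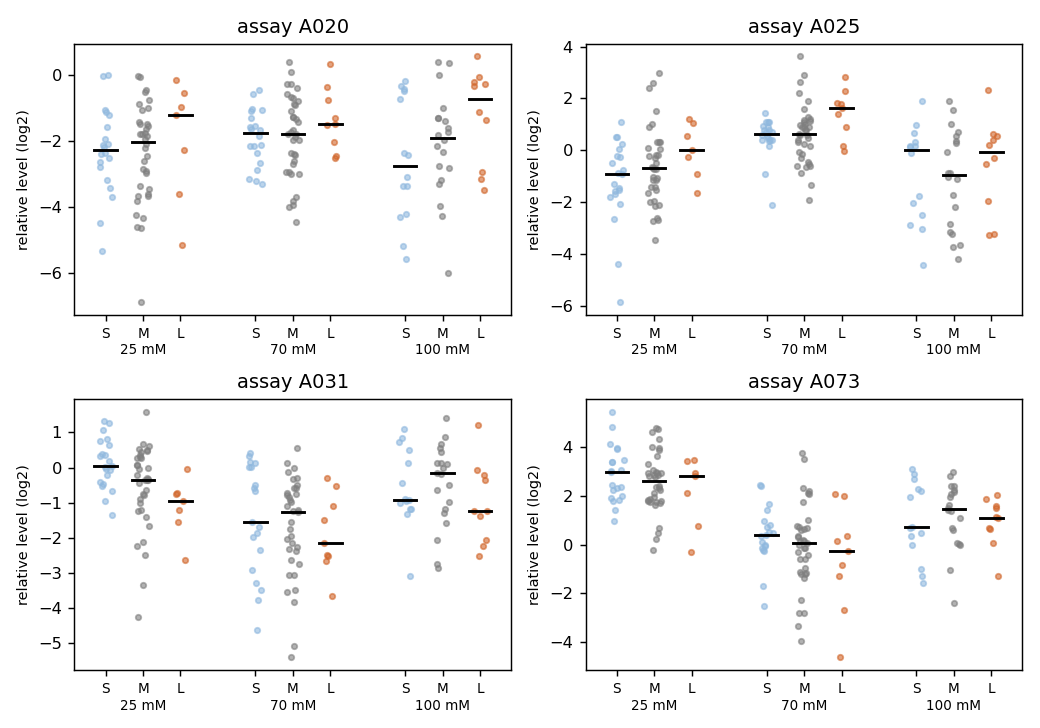
Relative level (y axis, log2 units) of assays A020, A025, A031 and A073 in S, M and L neurospheres at 25, 70 and 100 mM ethanol (x axis), 1 point per neurosphere, with a black bar at the median. The groups overlap for every assay and dose, and the medians also vary with dose, as for A073, whose S median is 2.99 at 25 mM and 0.39 at 70 mM.

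At 25 mM alone, a split added after the data were seen, more assays passed. With limma 22 of 72 (30.6%) differed between L and S, 10 higher and 12 lower in L, and 14 of 72 (19.4%) had a slope on log2 diameter past the threshold. A025 was higher in L by 1.63 log2 units (adjusted p = 0.0151) and A073 lower by an L minus S difference of -1.30 (adjusted p = 0.00992). A031 also passed, at -1.17 (adjusted p = 0.0492), and A020 did not, at 1.22 (adjusted p = 0.0975). Without centring the signs of A073 and A031 turned at this dose, to 0.59 (SE 0.89) and 0.72 (SE 1.01), neither of which passed, while A025 was higher in L by 3.51 log2 units (adjusted p = 0.0305). At 70 mM alone 0 of 72 (0%) passed, with 2 at an unadjusted p under 0.05, and at 100 mM alone 0 of 72 (0%), with 4.

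The calls at 25 mM rested on few spheres. There were 7 L neurospheres at this dose, and without the 1 of run 1 Set-A (55.0 µm, mean cycle number 8.32) limma called 0 assays, with 20 at an unadjusted p under 0.05. Without either of the L neurospheres of run 1 Set-B at 61.2 and 73.3 µm, which had a mean cycle number of 10.5 each, it called 10. Without each of the other 4 it called 22 to 25. Leaving out the whole combination of run 1 Set-A or that of run 1 Set-B gave 0 calls in each case, with 20 and 18 assays at an unadjusted p under 0.05. The 3 neurospheres whose removal lowered the count had the lowest mean cycle numbers of the 7. Whether amount of template had a part in these calls was not tested. With no centring 22 of 72 (30.6%) passed at 25 mM, all higher in L, and 10 assays were called both ways. These calls without centring also rested on few spheres. They fell to 0, A025 included, without the 55.0 µm L neurosphere. They fell to 1 without either the 61.2 or the 73.3 µm one and to 9 without the one of run 3. Without each of the others they numbered 35, 35 and 39. The slope without centring passed for 19 of 72 (26.4%), all positive.

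**Figure D5:**
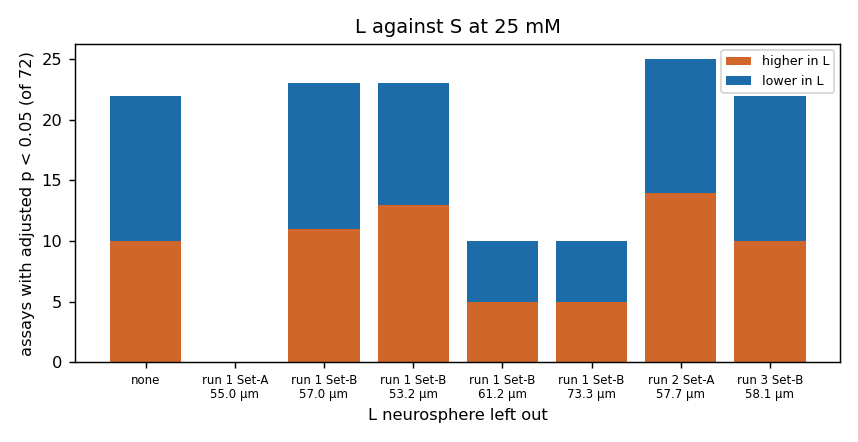
Number of the 72 assays with a limma adjusted p under 0.05 for L against S at 25 mM (y axis), with no neurosphere left out and with each of the 7 L neurospheres left out in turn (x axis, run, set and diameter), split into higher and lower in L. The count is 22 with all, 0 without the L neurosphere of run 1 Set-A, 10 without either of the larger L neurospheres of run 1 Set-B, and 22 to 25 without each of the others.

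By culture set, 0 of 72 assays (0%) passed for L against S in Set-A, with 5 at an unadjusted p under 0.05, and 9 of 72 (12.5%) in Set-B, 2 higher and 7 lower in L. A025 at 1.09 log2 units (adjusted p = 0.0413) and A073 at -0.98 (adjusted p = 0.0192) were among the 9. Without centring, 0 of 72 (0%) passed in Set-B for L against S, with 20 at an unadjusted p under 0.05 and 71 of 72 higher in L, and A073 turned to 0.37 (SE 0.74). The slope on log2 diameter in Set-B passed for 0 of 72 relative levels (0%), with 14 at an unadjusted p under 0.05, and for 17 of 72 assays without centring (23.6%), all positive. Of the 9 assays called on relative levels, 7 were also among the 22 at 25 mM, and the neurospheres of Set-B at 25 mM belong to both. Leaving out each of the 12 L neurospheres of Set-B in turn gave 0 to 11 calls. Across the 72 assays the L minus S differences of the 2 sets, which share no neurosphere, had a Pearson correlation of 0.23 (Spearman 0.22) and the same sign in 38. Between doses the correlation was 0.18 for 25 and 70 mM, -0.14 for 25 and 100 mM and -0.08 for 70 and 100 mM. These are descriptions across assays, which are not independent replicates, and spheres of one set share their culture.

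The main axis of relative levels, found without the size labels, was compared last. The first principal component of the 23 assays with a value in every neurosphere, with the means of the combinations removed, held 46.4% of the variance; the sign of its scores is arbitrary. The L neurospheres had a lowest, median and highest score of -8.41, -0.69 and 3.44, and the S neurospheres -7.41, 0.64 and 7.68. The ranges overlapped and reached higher in S. Within combinations the L minus S difference was -1.31 (SE 0.82, 95% interval -2.95 to 0.34, permutation p = 0.143, adjusted p = 0.285), with L lower in 8 of 11 combinations. In all 4 combinations at 25 mM L was lower, by differences of -9.64, -4.04, -1.74 and -2.66.

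In Set-B alone the difference in score was -2.80 (permutation p = 0.0099), and it kept a permutation p between 0.00517 and 0.0236 when each L neurosphere of Set-B was left out. In Set-A alone it was -0.03. The score went with the mean cycle number among the L neurospheres at 25 mM. The 4 with a mean cycle number of 8.32 to 11.6 had scores of -8.41, -6.60, -5.03 and -2.25, and the 3 with 15.7 to 17.1 had scores from -0.91 to 0.52. Low scores at low mean cycle numbers were not particular to these L neurospheres. The lowest score of all, -11.2, was that of an M neurosphere at 100 mM with a mean cycle number of 8.46. Not every such sphere scored low, as an S neurosphere at 70 mM with 8.23 had 0.39. That sphere came from run 1 Set-B, where the combination mean of 10.2 cycles was the lowest of the 11. The scores have the combination means removed and the mean cycle numbers beside them do not, so the 2 are not on a like footing across combinations. The part of the amount of template in the component score was not tested.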

How the data were processed

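Per the labels' protocols, each lysate went straight into reverse transcription and pre-amplification, and EvaGreen dye was read over 30 cycles. Per the labels' protocols the deposited cycle numbers came from the maker's analysis software, and per the file headers they are not normalized. The sources used here do not give the software version or the reason a value is missing. Cycle numbers rest on no count of molecules, and errors are those between neurospheres.

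Of 13050 values, 1333 (10.2%) were missing and read as not detected. The design text names 96 genes; 75 assays were analysed. Relative levels of the 72 assays with a value in at least 50% of the 174 were fitted in limma 3.58.1 (R 4.3.3), with S, M and L or log2 diameter, the 11 combinations of run, set and dose as covariates, and Benjamini-Hochberg adjustment. Single values were tested by two-sided permutation within combinations, and differences of slopes by permuted residuals, with numpy 2.4.6. The permutation tests of slopes and of their differences were tried on data simulated by permuting residuals of the mean cycle numbers within combinations. The limma, detection and component steps were not tried in this way. Assays were to be named, at most 2 per direction, only if they passed and had the same sign in both sets. The members and tests were chosen with earlier results of these data known. Alternatives covered centring, missing values, detection filters, and leaving out sets, runs, doses and neurospheres.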

Additional observations from a re-analysis of the deposited data

Results flagged for a closer look

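In 16 groups of 4 to 10 neurospheres of one size, run, set and dose, mean cycle number and detected assays were examined, which made 32 tests for a neurosphere far from the others. Of these, 3 were positive, in 2 groups; chance gives about 1 in 20. In run 1 Set-B at 100 mM, 1 of 5 M neurospheres, of 51.5 µm, had a mean cycle number of 12.8 where the others had 8.45 to 9.71. In the same group, the same neurosphere had the lowest number of detected assays, 71, where the others had 73. In run 1 Set-B at 70 mM, 1 of 6 M neurospheres, of 44.2 µm, had 47 detected assays where the others had 71 to 72. The test for a difference among doses in the slope of mean cycle number on diameter gave F = 3.06 (permutation p = 0.0445), and it did not pass after adjustment (adjusted p = 0.285).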

How the results depend on the processing

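Of 294 recomputed values, 245 were counted as unchanged. For differences and single slopes this means the same sign and side of the threshold. For F tests and the second principal component it means the same side, and for assays called an equal count. Settings of 1 dose or set alone without centring, where A073 and A031 turned sign, were not among the 294. The L minus S difference in mean cycle number turned to 0.10 in Set-A alone, 0.14 without run 3, 0.11 without 70 mM and 1.31 at 100 mM alone. At an unadjusted permutation p under 0.05, which is the threshold for single values in this paragraph, the slope on log2 diameter passed in Set-B alone (-1.27), without run 2 (-0.92), without 100 mM (-1.04) and at 25 mM alone (-1.33), and turned to 0.99 at 100 mM alone. The difference among doses lost its unadjusted p under 0.05 with the median cycle number in place of the mean (F = 2.68). It also did so in Set-A alone (1.56), in Set-B alone (0.56), and without run 1 (2.64), run 2 (1.95) or run 3 (1.70). The same held without 25 mM (3.41) or 100 mM (0.36). It held too with the 22 off-step neurospheres (2.88), and without the 55.0 µm L neurosphere at 25 mM (2.82). In 5 other settings the difference among doses kept an unadjusted permutation p under 0.05. One was without 70 mM, which sets 25 against 100 mM (F = 7.37, permutation p = 0.007). The difference between sets passed without run 1 (-1.92) and was -0.02 without run 3 (permutation p = 0.984). Ethanol minus unexposed turned to 0.11 in Set-B alone. The difference in detected assays turned to -0.12 in Set-A alone and -0.31 without run 1. The component score passed in Set-B alone (-2.80), without run 2 (-2.26) and without 100 mM (-2.29). The off-step neurospheres (21 S, 1 M and 0 L) bear on L minus S in limma only through the M term of the fit and the estimate of spread. For L against S, the assays called numbered 2 with centring on the median, with the 80% filter and with the off-step neurospheres. They numbered 9 in Set-B alone, 1 without 100 mM and 22 at 25 mM alone. For the slope they numbered 1 without centring, 1 with the mean cycle number as covariate, and 14 at 25 mM alone (without centring, 19 at 25 mM alone and 17 in Set-B alone), for slope by dose 1 without 70 mM, and for slope by set 1 with every assay of at least 10 values. The cause was not tested. No paired analysis was possible because each neurosphere has 1 size and the numbers only name spheres. The wide spread between neurospheres, with 26 in the L group, limits every comparison.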
